A study of Homo sapiens with 9 samples.

Results

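Gene expression was compared between 22Rv1 cells that carried the S239A form of PDCD4 and 22Rv1 cells that carried wild-type PDCD4 (WT), with 3 RNA sequencing libraries in each group, 6 of the 9 libraries of the study. 22Rv1 is an established human prostate carcinoma line. In all groups the cells' own PDCD4 had been depleted with a short hairpin RNA before 1 form of the protein was put back, so WT here is a rescued knockdown and not the parental line. The question of the study was what PDCD4 phosphorylation by PLK1 does in resistance to enzalutamide, an antiandrogen drug. The 3 libraries of the S239D rescue entered the fit of all 9 libraries only to share its estimate of the spread. The 6 libraries were chosen by their genotype labels, PDCD4-S239A and PDCD4-WT. Neither clones nor separate cultures are mentioned in the labels, so each p-value reflects no more than the variation among these libraries, which may be technical. No drug treatment is given in the labels for any group.

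PDCD4 is a tumour suppressor that binds the RNA helicase EIF4A and keeps it out of the complex that loads ribosomes onto messenger RNAs with structured leaders. Kinases that phosphorylate PDCD4 generally target it for degradation, which releases the helicase. PLK1 is a kinase of mitotic entry and spindle assembly. Replacing serine with alanine removes the hydroxyl group that receives the phosphate. An RNA measurement sees only what follows at the level of transcripts, and translation itself was not measured.

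The residue that was replaced lies in exon 6 of 12 of the PDCD4 transcript used here, which encodes 469 residues. The reference sequence around its codon, with the serine codon in capitals (S239), is shown because it is the site in which the groups were made to differ. It lies at chr10:110887794-110887856 on the + strand of GRCh38, with the codon at 110887824 to 110887826 (GENCODE release 29), and is the reference, not the introduced copy.
PDCD4 serine codon: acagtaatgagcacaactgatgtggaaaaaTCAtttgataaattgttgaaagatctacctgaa

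PDCD4 itself (chromosome 10, 110871795 to 110900006) was read first because it was the gene depleted and put back. It stood at 24.1, 24.9 and 20.4 CPM in WT and 19, 23.1 and 25 CPM in S239A, where CPM is the count normalised for library size and scaled between libraries. The groups overlapped, with S239A replicate 1 lowest and S239A replicate 3 highest of the 6. The difference was a log2 fold change -0.04, SE 0.13, edgeR adjusted p = 0.953, with a 95% interval of -0.32 to 0.24. Reads of the endogenous gene and of the rescue construct can both enter this count and were not told apart.

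The cells carried the transcripts of prostate luminal epithelium. The 10 luminal markers summed to 5120 to 5220 CPM (here without the scaling) in WT and 5330 to 5580 in S239A, while 5 endothelial markers summed to at most 0.583 CPM and 8 immune markers to at most 6.32. Of those, CDH5 of endothelium and CD3E of T cells had no count in any of the 6 libraries. Fibroblast markers summed to 62.8 to 75.1 CPM in WT and 67.0 to 73.9 in S239A. Total counts ran from 5696841 (WT replicate 2) to 9688554 (S239A replicate 3), and a floor of 3 counts equals 0.31 to 0.527 CPM, covering counting error only.

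S239A replicate 2 stood apart from the other 5 libraries. Transcripts of the mitochondrial genome took 5.38% of its counts, against 3.33% and 2.99% in S239A replicates 1 and 3 and 2.83% to 3.04% in WT. Cytosolic ribosomal protein transcripts took 5.23% of its counts, against 5.68% to 5.99% in the other 5. On the first principal component of log2 CPM, which held 31% of the variance, it lay at -44.6 and the others at 4.05 to 12.4. The second component held 22.9% and separated S239A replicates 1 and 3 (-18.4 and -22) from WT (-0.803 to 29.7), with replicate 2 at 2.54. In replicate 2, 90 of 8858 genes with a mean of at least 20 CPM lay more than 0.5 log2 units above both other S239A libraries and 318 lay that far below both. For each of the other 5 libraries, measured against its own group, those counts were 2 to 4 and 5 to 9.

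The direction in which replicate 2 departed followed transcript length. The 20% of genes with the shortest transcripts (median 1360 bases) had a median of -0.20 log2 units relative to the WT mean in replicate 2, and the 20% with the longest (median 7390 bases) had 0.23. In replicates 1 and 3 the same 2 medians were -0.0073 and 0.046, and 0.035 and 0.015. GC content gave another order. The most GC-rich 20% of genes (median 62% GC) stood at 0.077 and 0.11 in replicates 1 and 3 and at -0.084 in replicate 2, while the most GC-poor 20% (38.7%) stood at -0.064, -0.088 and 0.07. The part of these trends in the differences between S239A and WT was not tested gene by gene. For most of the larger shifts among the lists, medians are given below also after subtracting the median of genes of like length and GC content.

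**Figure D1:**
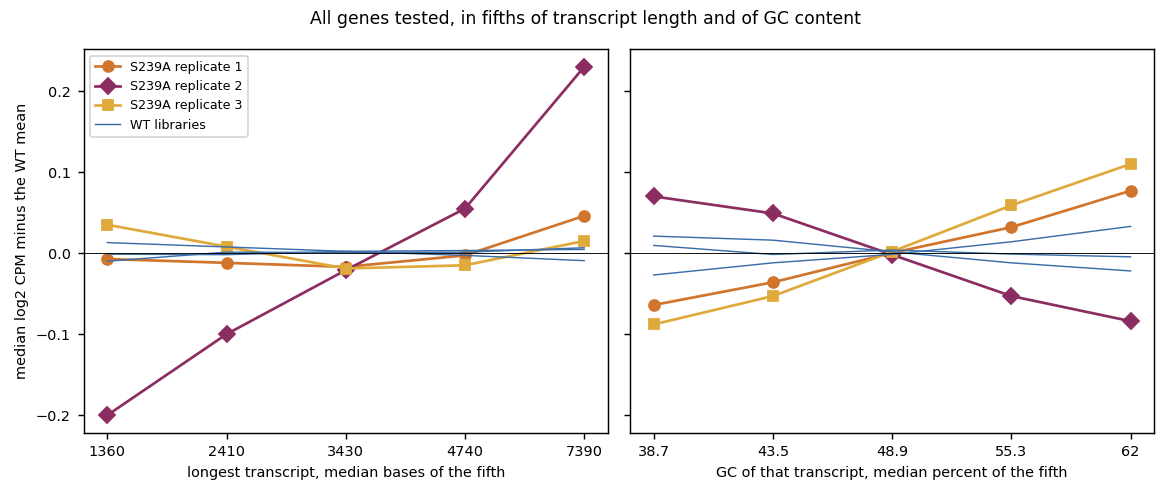
Median of log2 CPM minus the WT mean (y axis) over all genes tested, in 5 equal classes of transcript length (left, x axis in bases) and of GC content (right, x axis in percent), with 1 line per library. S239A replicate 2 runs from -0.20 to 0.23 along length, whereas replicates 1 and 3 run from -0.064 and -0.088 to 0.077 and 0.11 along GC content.

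TXNIP was called lower in S239A and was the only gene called, 1 of 16213 (0.00617%), when all 9 libraries were fitted together with edgeR and the Benjamini-Hochberg adjusted p was required to be under 0.05. Differences were small across the transcriptome. The middle 50% of log2 fold changes lay between -0.12 and 0.14 with a median of 0.0017, and 18 of 8858 genes with a mean of at least 20 CPM differed by 1.5-fold or more. Before adjustment, 887 genes higher in S239A (5.47%) and 696 lower (4.29%) had an edgeR p under 0.05. In 1611 genes (9.94%) the 3 S239A libraries all lay above the 3 WT libraries, and in 1548 (9.55%) they all lay below.

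The number of genes called turned on S239A replicate 2, which was left out with its values known. When it was left out and the remaining 5 libraries were fitted alone, edgeR called 982 of 16193 genes, 515 higher (3.18%) and 467 lower (2.88%) in S239A. Their absolute log2 fold changes had a median of 0.29, with 5% below 0.18 and 5% above 0.86. With all 6 libraries of the 2 groups the call count was 1. Leaving out any other of the 6 in place of replicate 2 gave 1 to 4 calls. In the fit of all groups it took the removal of both S239A replicate 2 and S239D replicate 2, whose mitochondrial share (6.01%) was the highest of all 9, to reach 874 calls (442 higher and 432 lower), of which 858 were also called in the 5 libraries. Removing S239A replicate 2 alone from that fit left 1 call and removing S239D replicate 2 alone left 8. Down-weighting libraries by their fit, with limma's voom and quality weights, called 760 genes (414 higher and 346 lower), 588 of them shared with the 982. S239A replicate 2 received a weight of 0.248 and S239D replicate 2 of 0.261, against 0.768 to 3.42 for the other 7.

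The genes called in the 5 libraries were chosen by their values in replicates 1 and 3, and replicate 2 took no part in the choice. Relative to the WT mean, those called higher had a median of 0.29, 0.21 and 0.33 log2 units in replicates 1, 2 and 3, and the genes called lower had -0.26, -0.11 and -0.28. These medians share the WT libraries and are a description, since a set chosen on some libraries tends to stand farther out in them. The 515 genes called higher had a median GC content of 57.4% and the 467 called lower of 43.1%, against 48.9% over all genes tested. After subtracting the median of genes of like GC content and length, the medians of the 5-library fold changes went from 0.32 to 0.26 and from -0.27 to -0.23.

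**Figure D2:**
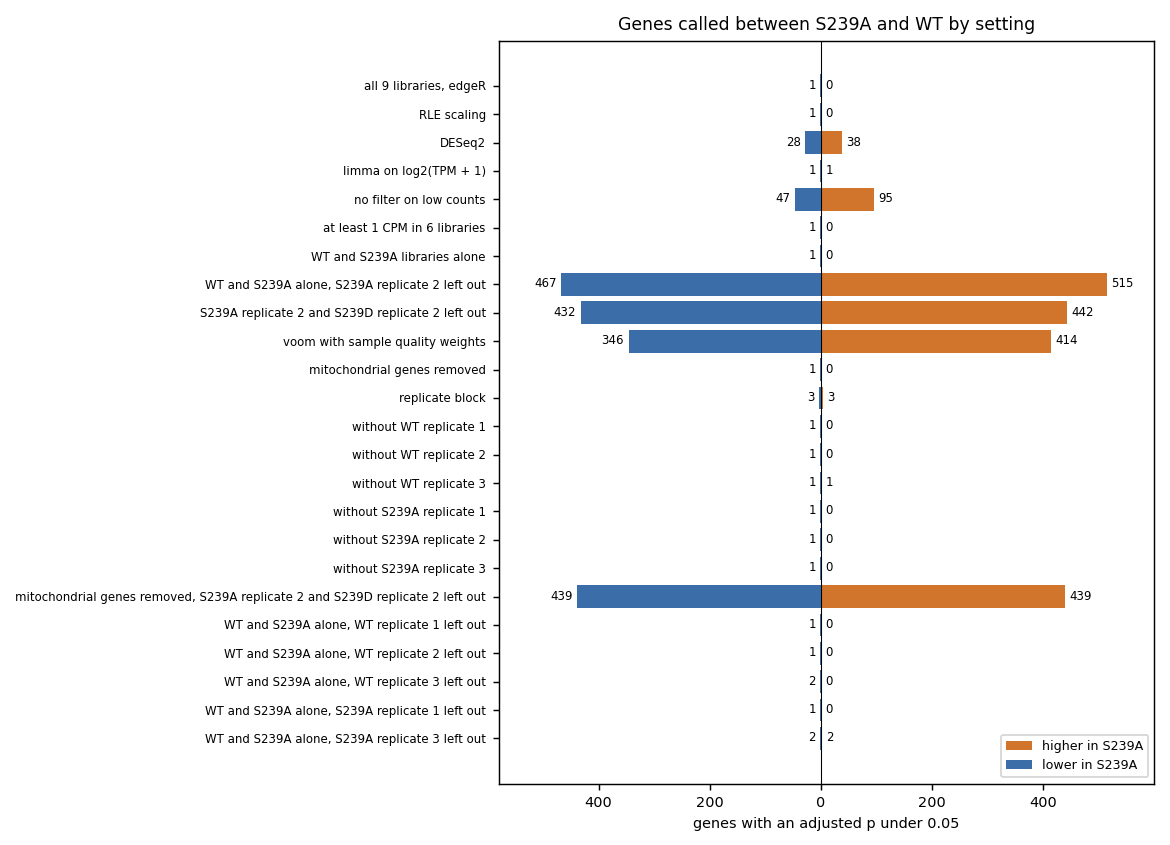
Genes with an adjusted p under 0.05 (x axis), higher in S239A to the right and lower to the left, for each way of fitting the comparison (y axis). Between 760 and 982 genes are called where S239A replicate 2 is left out together with the S239D libraries or S239D replicate 2, or is down-weighted, and 142 or fewer in every other setting.

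TXNIP (chromosome 1, 145992435 to 145996579) encodes an arrestin-like protein that inhibits thioredoxin and restrains glucose uptake. It stood at 484, 469 and 452 CPM in WT and 253, 237 and 263 CPM in S239A. The highest S239A library lay far below the lowest WT library, and replicate 2 was the lowest of the 6. The difference was a log2 fold change -0.90, SE 0.074, edgeR adjusted p = 9.79e-05. It was also called without replicate 2 (log2 fold change -0.86, SE 0.047, edgeR adjusted p = 3.82e-10). Per transcript length, as TPM, its level was 250, 241 and 234 in WT and 131, 119 and 131 in S239A.

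ARRDC4 (chromosome 15, 97960703 to 97973833), a paralog of TXNIP in the same arrestin family, is induced together with TXNIP by the sugar-sensing transcription factors MondoA (MLXIP) and ChREBP in many cells. It stood at 36.7, 34.1 and 35 CPM in WT and 21.6, 25.2 and 21.3 CPM in S239A. The groups did not overlap, and replicate 2 was the S239A library nearest to WT. ARRDC4 did not pass in all 9 libraries (log2 fold change -0.64, SE 0.11, edgeR adjusted p = 0.131) and was called lower in the 5 libraries (log2 fold change -0.72, SE 0.1, edgeR adjusted p = 0.000311). Of the 24 tested genes in the list of TXNIP, its arrestin relatives and glucose sensing, 3 were called higher and 4 lower there, and the list's median was 0.023. DDIT4, an inhibitor of mTORC1 that stress and glucocorticoid receptors induce, was among the 3 higher, at 154, 162 and 161 CPM in WT and 229, 168 and 253 CPM in S239A. All S239A libraries were above WT, replicate 2 only just (log2 fold change 0.45, SE 0.14, edgeR adjusted p = 0.317, and 0.61 with edgeR adjusted p = 1.42e-06 in the 5 libraries). PFKFB3, which makes the activator of phosphofructokinase, was among the 4 lower (-0.26, edgeR adjusted p = 0.024). MLXIP itself was at 197 ± 5.7 CPM in WT and 221 ± 11 CPM in S239A (SD, n = 3 libraries here and below) and was called in neither fit (edgeR adjusted p = 0.501 and 0.134).

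The promoters of TXNIP and ARRDC4 are shown because TXNIP was the gene called and ARRDC4 is its paralog. Capitals mark matches to E-box motifs, the letters that MondoA, ChREBP and MYC family dimers are known to read. Each window is the 250 bases before the transcript start in RefSeq on GRCh38.p14, read in the direction of the gene. For TXNIP the promoter set held 2 windows, and only the first is shown. It is chr1:145996580-145996829 on the - strand, with its match starting 88 bases before the start. The ARRDC4 window is chr15:97960453-97960702 on the + strand, with its match 210 bases before the start.
TXNIP promoter: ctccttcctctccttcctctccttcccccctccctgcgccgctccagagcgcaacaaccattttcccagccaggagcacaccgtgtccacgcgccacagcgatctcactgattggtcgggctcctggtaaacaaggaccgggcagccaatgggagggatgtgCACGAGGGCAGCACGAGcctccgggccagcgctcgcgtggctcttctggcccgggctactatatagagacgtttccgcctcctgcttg
ARRDC4 promoter: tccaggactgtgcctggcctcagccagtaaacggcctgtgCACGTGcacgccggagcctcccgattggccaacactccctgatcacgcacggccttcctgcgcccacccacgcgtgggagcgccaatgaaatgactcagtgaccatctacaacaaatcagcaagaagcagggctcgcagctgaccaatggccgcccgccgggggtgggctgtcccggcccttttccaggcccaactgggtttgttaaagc

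The TXNIP window matched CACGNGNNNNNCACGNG, a pair of E-box-like sites with a 5-base gap, and did not hold CACGTG. The ARRDC4 window held CACGTG and did not match the pair. Both strands were searched, and CACGTG is 1 of the spellings of each site of the pair. Of 35116 RefSeq promoter windows of 250 bases, 16 (0.0456%) matched the pair and 2228 (6.34%) held CACGTG. A match describes letters only.

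Translation initiation factors, the machinery on which PDCD4 acts, showed small differences. EIF4A1, the helicase that PDCD4 binds, stood at 905, 915 and 899 CPM in WT and 802, 818 and 773 CPM in S239A. Every S239A library was below every WT library, including replicate 2. It was not called in all 9 libraries (log2 fold change -0.18, SE 0.066, edgeR adjusted p = 0.379) and was called lower in the 5 libraries (log2 fold change -0.20, SE 0.039, edgeR adjusted p = 0.00391). EIF4A2, its close paralog, stood at 346, 316 and 340 CPM in WT and 346, 285 and 351 CPM in S239A, and EIF4G1, the scaffold that holds the helicase, at 722, 737 and 732 CPM in WT and 678, 875 and 716 CPM in S239A. Both overlapped between groups, their 95% intervals were -0.24 to 0.17 and -0.16 to 0.26, and their signs reversed without replicate 2. EIF4E, which binds the messenger RNA cap, was at 88.1 ± 3.4 CPM in WT and 78.3 ± 4.8 CPM in S239A (edgeR adjusted p = 0.543), and EIF4B, a cofactor of the helicase, was at 1100 ± 21 CPM in WT and 1190 ± 99 CPM in S239A (edgeR adjusted p = 0.644). Among the 16 genes of this complex and PDCD4 partners, 0 were called higher and 2 lower in the 5 libraries.

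Of the 27 other initiation factors, 22 had a fold change below 0, 8 (29.6%) had no overlap with S239A lower and 1 with S239A higher, and 0 were called higher and 5 lower in the 5 libraries. EIF5, which triggers GTP hydrolysis at the start codon (-0.25, edgeR adjusted p = 0.0162), EIF1AX, which promotes scanning (-0.25, 0.0148), and EIF3K of the EIF3 complex (-0.23, 0.0221) were among the 5. The list's median was -0.12 and -0.13 log2 units in replicates 1 and 3 and -0.0081 in replicate 2. After the subtraction for GC content and length, the median of the 5-library fit went from -0.12 to -0.065. As the background for this list and those below, 9.55% of all genes lay wholly below WT and 9.94% wholly above. Over all genes the 5-library fit called 2.88% lower and 3.18% higher.

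PLK1 (chromosome 16, 23677656 to 23690367) stood at 98.2, 99.6 and 98.8 CPM in WT and 92.2, 83.2 and 87.6 CPM in S239A. All S239A values were below WT, and the difference did not pass (log2 fold change -0.17, SE 0.082, edgeR adjusted p = 0.514; in the 5 libraries -0.14, edgeR adjusted p = 0.205).

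MYC and the genes it is known to drive were slightly lower in S239A. MYC (chromosome 8, 127735434 to 127742951) stood at 255, 245 and 252 CPM in WT and 214, 198 and 206 CPM in S239A. The groups did not overlap and replicate 2 was lowest. It did not pass in all 9 libraries (log2 fold change -0.28, SE 0.075, edgeR adjusted p = 0.255) and was called lower in the 5 (log2 fold change -0.26, SE 0.049, edgeR adjusted p = 0.00336). Among 58 tested MYC targets and ribosome biogenesis genes the median log2 fold change was -0.14, against 0.0017 over all genes, and 50 were below 0. No member lay wholly above WT and 18 (31%) lay wholly below, where 9.55% of all genes did. The 5-library fit called 19 of the 58 lower (32.8%, against 2.88% of all genes) and 0 higher.

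The 3 S239A libraries gave like medians for this list, -0.13, -0.12 and -0.18. NOP58 and NOP56, scaffold proteins of the box C/D particles that methylate ribosomal RNA, were at 118 ± 4.9 CPM in WT and 95.8 ± 8.9 CPM in S239A, and at 187 ± 12 CPM in WT and 154 ± 11 CPM in S239A. DKC1, the pseudouridine synthase of the other class of these particles, was at 124 ± 2.4 CPM in WT and 102 ± 5.7 CPM in S239A. GNL3, a nucleolar GTPase, was at 137 ± 10 CPM in WT and 112 ± 3.9 CPM in S239A. Each of the 4 was called lower in the 5 libraries (-0.37, -0.23, -0.24 and -0.26; edgeR adjusted p = 0.00117, 0.0205, 0.0218 and 0.0187). After the subtraction for GC content and length the medians were -0.11 in all 9 libraries and -0.15 in the 5. RNA polymerase I and III subunits, which transcribe the ribosomal and transfer RNAs, had medians near 0 (-0.035 and -0.051), with 1 of 24 called lower.

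In the fit of all 9 libraries, DNA replication genes had the lowest median among the lists with 10 or more tested genes. In the 5 libraries their median was -0.17, and that of the 11 androgen-repressed genes described below was lower, at -0.19. Values for DNA replication were similar in every S239A library. The median over its 60 tested members was -0.18 in all 9 libraries, and it was -0.17, -0.12 and -0.16 in replicates 1 to 3. Of the 60, 26 (43.3%, against 9.55% of all genes) lay wholly below WT and 0 wholly above. The 5-library fit called 14 lower (23.3%, against 2.88% of all genes) and 0 higher. PCNA, the sliding clamp of the replication polymerases (chromosome 20, 5114953 to 5126626), stood at 201, 204 and 194 CPM in WT and 159, 151 and 169 CPM in S239A. MCM4, a subunit of the replicative helicase (chromosome 8, 47960185 to 47978160), stood at 377, 368 and 360 CPM in WT and 298, 338 and 305 CPM in S239A. Neither gene's groups overlapped, and replicate 2 was the lowest S239A library for PCNA and the highest for MCM4. In the 5 libraries both were called lower (PCNA -0.28, edgeR adjusted p = 0.00336; MCM4 -0.29, 0.000805), as were FEN1, the nuclease that trims Okazaki fragments (-0.29, 0.00391), and GINS2 of the helicase complex (-0.27, 0.0472). The list's medians after the subtraction for GC content and length were -0.14 and -0.13.

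Mitosis genes were lower in replicates 1 and 3 and not in replicate 2. Their medians by library were -0.15, 0.0087 and -0.18, and -0.12 over the 62 members in all 9 libraries. Wholly below WT were 18 (29%) and wholly above were 3, and 10 were called lower and 0 higher in the 5 libraries. CCNB1, the cyclin of mitotic entry (chromosome 5, 69167135 to 69178245), was at 142 ± 4 CPM in WT and 110 ± 6.2 CPM in S239A, all S239A values below WT (log2 fold change -0.37, SE 0.084, edgeR adjusted p = 0.201; -0.41 and edgeR adjusted p = 0.000363 in the 5 libraries). CDCA8 of the chromosomal passenger complex (53.6 ± 0.47 CPM in WT and 45.4 ± 1.7 CPM in S239A), the kinetochore protein SPC25 (11.1 ± 1.2 CPM in WT and 8.09 ± 0.53 CPM in S239A) and PTTG1, the securin that holds separase inactive (71.4 ± 2.6 CPM in WT and 60 ± 6.9 CPM in S239A), were called in neither fit (edgeR adjusted p = 0.103, 0.191 and 0.189 in the 5 libraries). Mitosis genes are GC-poor (median 42.6%), and after the subtraction the 5-library median went from -0.15 to -0.12. Nucleotide and one-carbon synthesis genes had a median of -0.056, with 4 of 27 called lower in the 5 libraries, among them PAICS of purine synthesis (-0.23, edgeR adjusted p = 0.00444) and the nucleoside diphosphate kinase NME1 (-0.27, 0.0288).

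Hypoxia-responsive and glycolytic genes formed a further group with lower values. The median over 47 members was -0.11, and it was -0.12, -0.082 and -0.12 by library. After the subtraction for GC content and length it was -0.086 in all 9 libraries and -0.12 in the 5. Wholly below WT were 15 (31.9%) and wholly above were 2. The 5-library fit called 13 lower and 1 higher. PGK1, a glycolytic kinase (chromosome X, 77910739 to 78129295), stood at 530, 531 and 523 CPM in WT and 423, 390 and 420 CPM in S239A, and LDHA, which reduces pyruvate to lactate (chromosome 11, 18394560 to 18408425), at 678, 715 and 702 CPM in WT and 559, 639 and 558 CPM in S239A. In both genes the 3 S239A libraries were below WT, replicate 2 lowest for PGK1 and highest for LDHA. Both were called lower in the 5 libraries (-0.32 and -0.32, edgeR adjusted p = 0.00017 for each), and so was BNIP3, a mitophagy receptor induced by low oxygen (-0.36, 0.00262). NDUFA4L2, a hypoxia-inducible relative of a respiratory chain subunit (chromosome 12, 57234903 to 57240715), was no member of the list and stood at 110, 111 and 104 CPM in WT and 71.5, 61.6 and 76.9 CPM in S239A. Its groups did not overlap (log2 fold change -0.63, SE 0.098, edgeR adjusted p = 0.116; in the 5 libraries -0.54 and edgeR adjusted p = 0.000103).

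**Figure D3:**
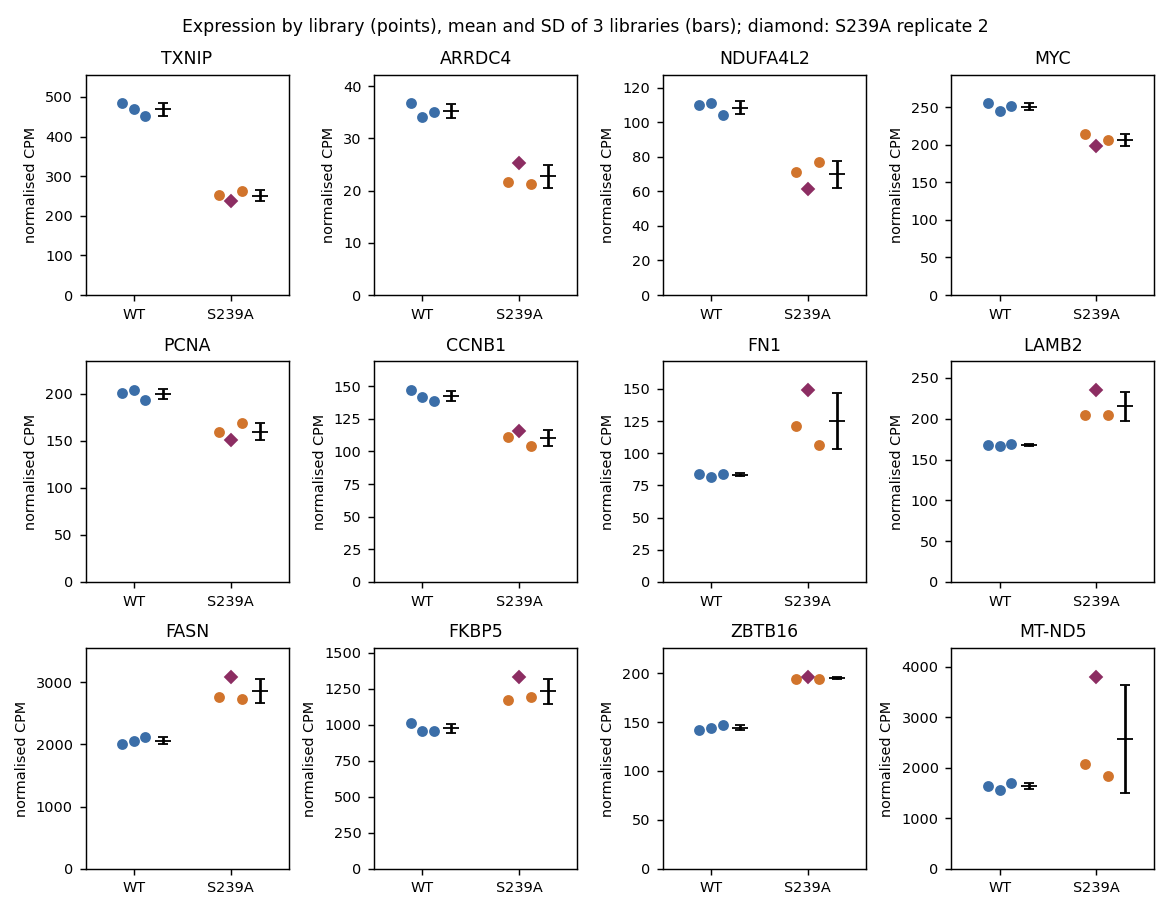
Normalised CPM (y axes, each from 0) of 12 genes in each WT and S239A library (points), with mean and SD of 3 libraries (bars). TXNIP stands at 452 to 484 CPM in WT and 237 to 263 in S239A, while for MT-ND5 S239A replicate 2 (diamond, 3800) stands far above the other 5 libraries (1570 to 2070).

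**Figure D4:**
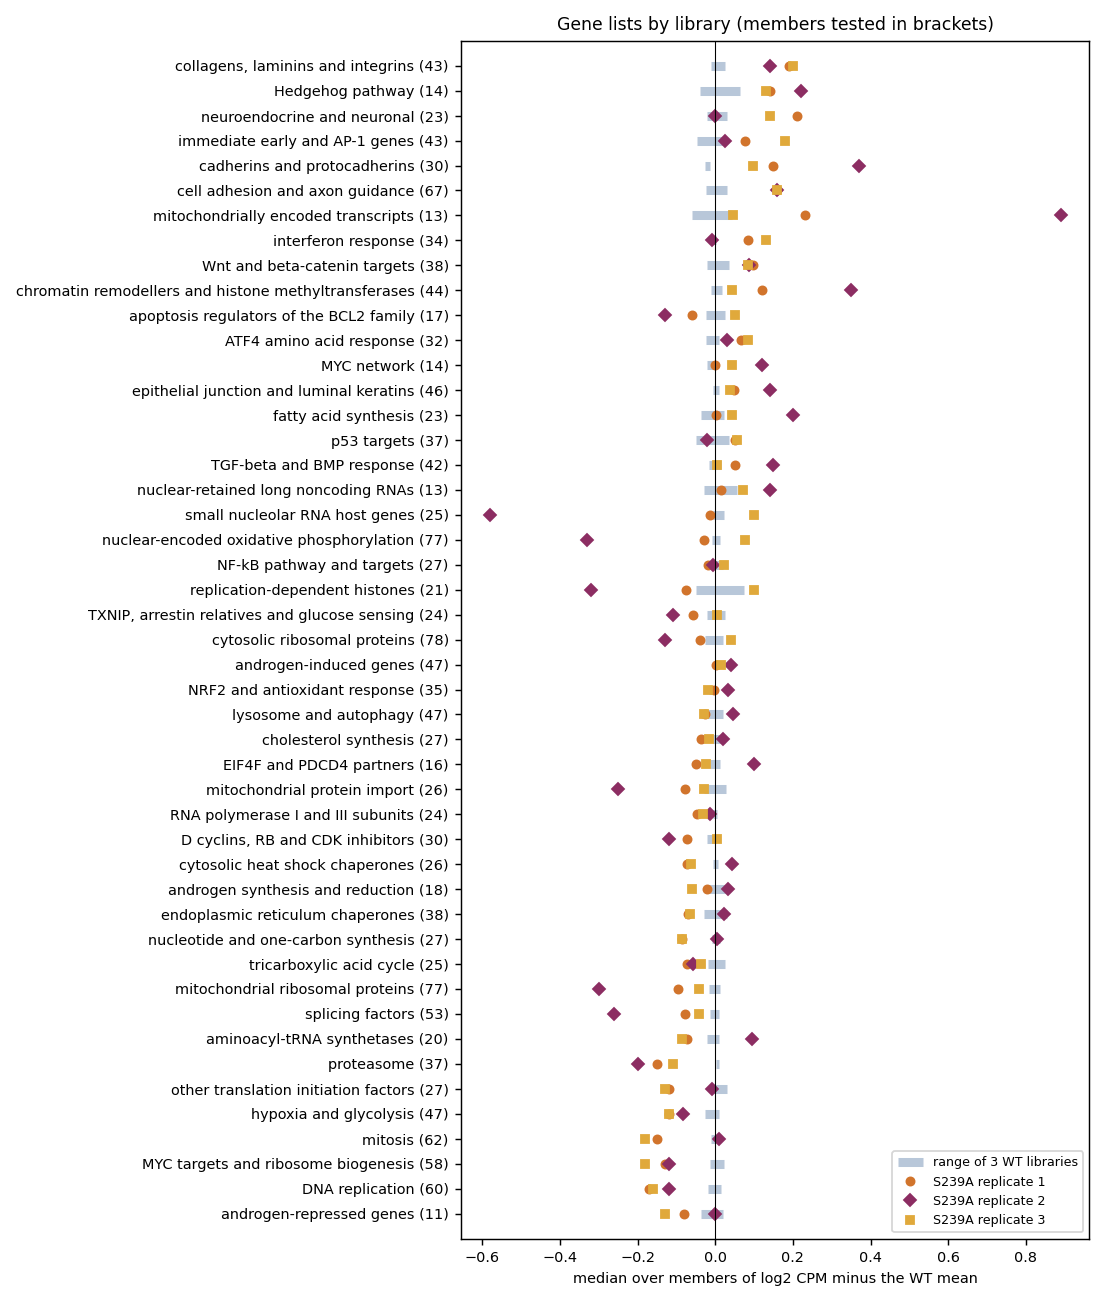
Median over the members of each list of log2 CPM minus the WT mean (x axis) in each S239A library (points), with the range of the 3 WT libraries (bars), for lists with 10 or more tested genes (y axis). DNA replication lies at -0.17 to -0.12 in all S239A libraries and cell adhesion at 0.16 in each, whereas small nucleolar RNA host genes lie at -0.58 in replicate 2 and at -0.014 and 0.10 in the other 2.

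Several groups of short transcripts had low medians that rested on replicate 2. Small nucleolar RNA host genes, whose introns give rise to the RNAs that guide ribosomal RNA modification, had medians of -0.014, -0.58 and 0.10 by library. SNHG1 (chromosome 11, 62851984 to 62855953) stood at 91, 79.9 and 83.4 CPM in WT and 65.4, 42.5 and 72.2 CPM in S239A, with replicate 2 far below the rest, and was called lower in the 5 libraries (-0.30, edgeR adjusted p = 0.0164). It was the 1 host gene of 25 called lower there, where 3 were called higher and the median of the list was 0.039 against -0.099 in all 9 libraries. Nuclear-encoded genes of oxidative phosphorylation had -0.028, -0.33 and 0.077, and their median turned from -0.083 to 0.029 in the 5 libraries, where 2 of 77 were called higher and 1 lower. Replication-dependent histones had -0.075, -0.32 and 0.099, with none of 21 called in the 5 libraries. Histone messages mostly lack a poly(A) tail, and the libraries were made from poly(A) RNA, so these values cover what that selection retained. SDHD and CYCS, an anchor of complex II and cytochrome c, were at 88.2 ± 3.9 CPM in WT and 74.2 ± 4.6 CPM in S239A, and at 382 ± 6.4 CPM in WT and 334 ± 28 CPM in S239A, and were called in neither fit. Mitochondrial protein import genes had a median of -0.25 in replicate 2 and of -0.078 and -0.028 in the other libraries. The median transcript of the small nucleolar RNA host genes was 2000 bases, that of the oxidative phosphorylation genes 1440 and that of the histones 1290, against 3430 over all genes tested. The part of transcript length in these medians was not tested beyond the subtraction, which left -0.49, -0.21 and -0.17 in replicate 2. In all 9 libraries it left -0.053, -0.037 and -0.03.

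A further 3 groups were lower in all S239A libraries and lowest in replicate 2. Proteasome subunits had medians of -0.15, -0.20 and -0.11, with 15 of 37 (40.5%) wholly below WT, 0 wholly above, and 6 called lower in the 5 libraries. PSMD14, the deubiquitinase of the lid (51.8 ± 2.3 CPM in WT and 42.2 ± 0.45 CPM in S239A), and PSMC2, an ATPase of the base (132 ± 1.6 CPM in WT and 113 ± 4.3 CPM in S239A), were among the 6 (-0.30 and -0.21, edgeR adjusted p = 0.0317 and 0.0312). Splicing factors had -0.079, -0.26 and -0.043, with 19 of 53 wholly below WT, and 10 called lower and 2 higher in the 5 libraries. SRSF2 (chromosome 17, 76734115 to 76737374), a serine- and arginine-rich factor that recruits the spliceosome to exons, stood at 237, 251 and 241 CPM in WT and 194, 158 and 193 CPM in S239A, all S239A values below WT. SRSF1 and SRSF6 of the same family, and SNRPD1 of the spliceosome core, were called lower in the 5 libraries as well (-0.27, -0.34 and -0.33, edgeR adjusted p = 0.00328, 0.000418 and 0.00794; SRSF2 -0.32, 0.000577). Mitochondrial ribosomal proteins, all encoded in the nucleus, had -0.097, -0.30 and -0.043, with 21 of 77 wholly below WT and 5 called lower in the 5 libraries, among them MRPS11 (43.7 ± 0.59 CPM in WT and 33.8 ± 0.84 CPM in S239A; -0.37, edgeR adjusted p = 0.0131) and MRPL17 (64.4 ± 0.94 CPM in WT and 50.5 ± 4.6 CPM in S239A; -0.27, 0.0272). Subtraction for GC content and length left 5-library medians of -0.081, -0.065 and -0.042 for the 3 groups.

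Transcripts of the mitochondrial genome were higher in S239A replicate 2 and, by less, in replicate 1, while the median of replicate 3 was near that of WT replicate 3. These 13 genes encode core subunits of the respiratory chain and ATP synthase. Their median log2 fold change was 0.42 in all 9 libraries and 0.14 in the 5. After the subtraction for GC content and length these medians were 0.51 and 0.16. By library the median relative to the WT mean was 0.23, 0.89 and 0.046 in S239A and 0.014, -0.06 and 0.044 in WT. MT-ND5, a proton-pumping subunit of complex I, stood at 1650, 1570 and 1690 CPM in WT and 2070, 3800 and 1830 CPM in S239A, highest in replicate 2 and above WT in the other 2 as well. MT-CYB of complex III stood at 2250, 2100 and 2230 CPM in WT and 2370, 4310 and 2140 CPM in S239A, and here replicate 3 was within the WT range. MT-ND3, another subunit of complex I, had another order, at 336, 357 and 395 CPM in WT and 443, 494 and 516 CPM in S239A, with replicate 3 highest.

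Of the 13, 6 were called higher in the 5 libraries and none lower, and 5 lay wholly above WT. The 6 included MT-ND6 (0.51, edgeR adjusted p = 0.00122), the subunit encoded on the light strand, MT-ND4L (0.48, 0.0114), MT-ND3 (0.41, 0.000577), MT-ND5 (0.26, 0.00199) and MT-ND4 (0.17, 0.0241). MT-ND4 and MT-ND4L overlap on the genome, the labels do not say whether strand was kept, and MT-ND6 lies opposite other transcripts, so reads of these genes can be shared. MT-CYB was not called (0.04, 0.642). Nuclear copies of mitochondrial genes can also take reads. Removing all genes of the mitochondrial genome before scaling left 1 call in all 9 libraries and 878 when S239A replicate 2 and S239D replicate 2 were left out.

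**Figure D5:**
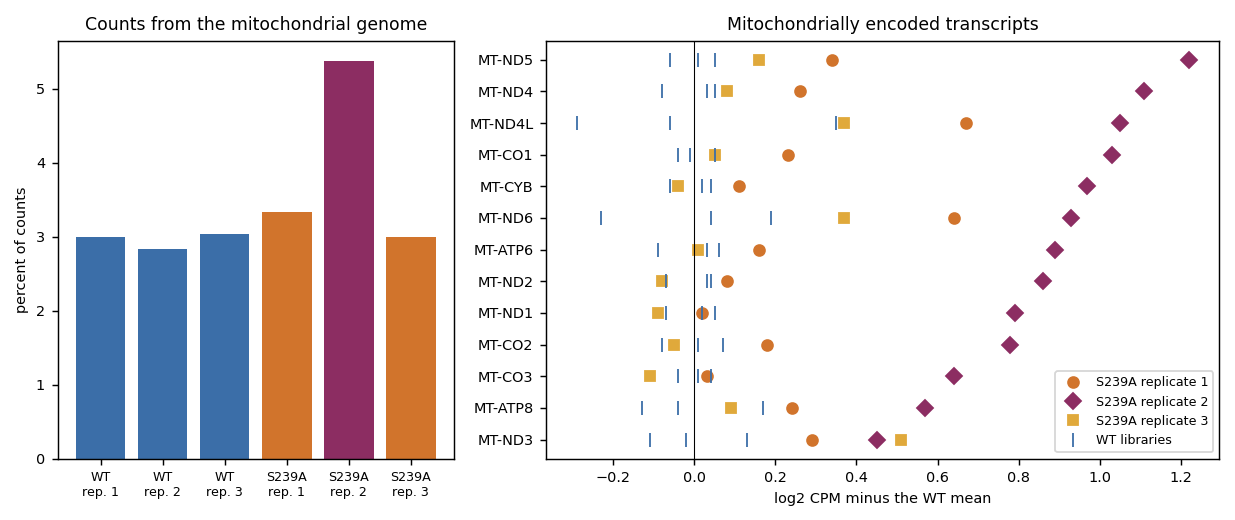
Percent of counts from the mitochondrial genome in each library (left) and log2 CPM minus the WT mean of the 13 mitochondrially encoded transcripts (right; ticks are WT libraries, symbols are S239A libraries). Replicate 2 holds 5.38% against at most 3.33% in the other WT and S239A libraries, and is the highest library for each transcript but MT-ND3.

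Genes of the extracellular matrix and cell adhesion were slightly higher in S239A. Collagens, laminins, integrins and related matrix genes had medians of 0.19, 0.14 and 0.20 by library, so that this list did not rest on replicate 2. Of 43 tested, 13 (30.2%, against 9.94% of all genes) lay wholly above WT and 1 wholly below, and 12 were called higher (27.9%, against 3.18% of all genes) and 0 lower in the 5 libraries. FN1, which encodes fibronectin (chromosome 2, 215360440 to 215436073), stood at 83.8, 81.8 and 83.8 CPM in WT and 121, 149 and 106 CPM in S239A. The WT libraries lay within 2 CPM of each other, all S239A libraries were above them and replicate 2 was highest (log2 fold change 0.59, SE 0.11, edgeR adjusted p = 0.186; 0.45 and edgeR adjusted p = 0.000363 in the 5 libraries). LAMB2, a laminin chain (chromosome 3, 49121114 to 49133118), stood at 168, 166 and 169 CPM in WT and 205, 235 and 205 CPM in S239A, without overlap. LAMB2, LAMA5 and HSPG2, the heparan sulphate proteoglycan perlecan of basement membranes, were called higher in the 5 libraries (0.29, 0.30 and 0.65, edgeR adjusted p = 0.00142, 0.00122 and 0.0208). The list's medians after the subtraction for GC content and length were 0.13 in all 9 libraries and 0.14 in the 5.

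Cell adhesion and axon guidance genes had a median of 0.16 in each of the 3 S239A libraries. Of 67 tested, 55 were above 0, 16 (23.9%) lay wholly above WT and 1 wholly below, and 7 were called higher and 0 lower in the 5 libraries. EPHA1, an ephrin receptor, stood at 6.94, 7.2 and 7.37 CPM in WT and 13.3, 10.9 and 11.8 CPM in S239A, and SEMA4G, a membrane-bound semaphorin, at 24.7, 20.7 and 26.9 CPM in WT and 38.8, 39.5 and 34.4 CPM in S239A, both without overlap. In the 5 libraries EPHA1 (0.81, edgeR adjusted p = 0.00751), SEMA4G (0.58, 0.00305) and the netrin receptors UNC5A (0.60, 0.0397) and UNC5B (0.46, 0.0414) were called higher. These genes are GC-rich (57.2%) and long (median 5950 bases), and the subtraction took the 5-library median from 0.14 to 0.085. Epithelial junction and luminal keratin genes had a median of 0.055, with 7 of 46 called higher and 1 lower in the 5 libraries, where the same subtraction took the median from 0.056 to 0.0032. KRT19, a luminal keratin (0.22, edgeR adjusted p = 0.00796), and the tight junction proteins CGN (0.32, 0.000577) and TJP3 (0.37, 0.00547) were among the 7.

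Cadherins and chromatin regulators, which have long transcripts, were highest in replicate 2. Cadherins and protocadherins had 0.15, 0.37 and 0.098 by library, with 11 of 30 (36.7%, against 9.94% of all genes) wholly above WT. In the 5 libraries 1 gene was called higher (3.33%), near the 3.18% of all genes. That gene was CLSTN3, a calsyntenin of synapses, at 87.1 ± 1.6 CPM in WT and 111 ± 7.8 CPM in S239A (0.30, edgeR adjusted p = 0.00522). FAT1, a giant protocadherin, stood at 125, 127 and 122 CPM in WT and 145, 207 and 136 CPM in S239A, all above WT and replicate 2 far above the rest, and was not called without it (edgeR adjusted p = 0.0755). Chromatin remodellers and histone methyltransferases had 0.12, 0.35 and 0.043, 18 of 44 (40.9%) wholly above WT, 1 wholly below and 7 called higher in the 5 libraries. KMT2D, a methyltransferase of enhancer histones (chromosome 12, 49018975 to 49059774), stood at 115, 111 and 122 CPM in WT and 148, 145 and 145 CPM in S239A, with replicate 2 like the other S239A libraries. KMT2D (0.34, edgeR adjusted p = 0.00142), ARID1A of the BAF remodeller (0.23, 0.00554) and EP400 (0.22, 0.0259) were among the 7. Median transcripts of the 2 lists were 8350 and 8580 bases. Subtraction for GC content and length took the 5-library medians from 0.15 and 0.084 to 0.051 and 0.021.

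Androgen-induced genes gave values in both directions. Their median was 0.043 over 47 members, and -0.0021 in the 5 libraries, where 8 were called higher and 4 lower. FKBP5, a cochaperone of steroid receptors (chromosome 6, 35573585 to 35728583), stood at 1010, 955 and 956 CPM in WT and 1170, 1330 and 1190 CPM in S239A, and ZBTB16, a transcription factor induced by steroid receptors (chromosome 11, 114059711 to 114256765), at 142, 144 and 147 CPM in WT and 194, 196 and 194 CPM in S239A. Both were wholly above WT and were called higher in the 5 libraries (0.27 and 0.42, edgeR adjusted p = 0.000363 and 0.000105), as was the cytokine receptor LIFR (0.36, 0.0136). MAF, a leucine zipper transcription factor, was wholly below WT at 53.5 ± 3.6 CPM in WT and 41.7 ± 1.7 CPM in S239A and was called lower (-0.37, 0.0122). The 11 androgen-repressed genes had a median of -0.06 in all 9 libraries and of -0.19 in the 5. By library it was -0.081, -0.00038 and -0.13, so that replicate 2 lay nearest to WT. After the subtraction for GC content and length the 5-library median was -0.14. Of the 11, 2 lay wholly above WT and 0 wholly below. In the 5 libraries 1 was called higher (9.09%, against 3.18% of all genes) and 0 lower. UGT2B15, an enzyme that glucuronidates androgens and has near-identical relatives that can share its reads, stood at 6.5, 8.78 and 7.14 CPM in WT and 5.31, 7.25 and 6.66 CPM in S239A, and its groups overlapped (log2 fold change -0.20, SE 0.19, edgeR adjusted p = 0.775). Androgen synthesis and reduction genes had a median of -0.014, with 1 of 18 called higher.

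Immediate early and AP-1 genes had a median of 0.13, with 0.076, 0.026 and 0.18 by library. Of 43, 10 lay wholly above WT and 3 wholly below, and 8 were called higher and 3 lower in the 5 libraries, where the median went from 0.16 to 0.13 after the subtraction for GC content and length. NR4A1, a nuclear receptor made within minutes of stimulation, stood at 105, 112 and 115 CPM in WT and 153, 133 and 148 CPM in S239A. DUSP1, a phosphatase of stress kinases, stood at 92.7, 98.5 and 96.3 CPM in WT and 77.2, 66.1 and 76.8 CPM in S239A and thus in the opposite order, and DUSP4, a phosphatase of the same family, at 35.4 ± 1.8 CPM in WT and 46.2 ± 2 CPM in S239A. In the 5 libraries NR4A1 (0.44, edgeR adjusted p = 0.000174) and DUSP4 (0.36, 0.0161) were called higher, and DUSP1 (-0.31, 0.00566) and CCN2, a matricellular protein that YAP and TGF-beta induce (-0.57, 0.0258), were called lower.

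Wnt and beta-catenin targets had like medians in the 3 S239A libraries (0.097, 0.087 and 0.085), and 2 of 37 tested members were called higher and 3 lower in the 5 libraries. The subtraction for GC content and length left 0.047, 0.083 and 0.028 by library and took the 5-library median from 0.12 to 0.029. FZD7, a Wnt receptor, stood at 12.8, 11.4 and 11 CPM in WT and 17.9, 17.1 and 18 CPM in S239A and was called higher (0.61, edgeR adjusted p = 0.0145). TNFRSF19, a receptor of the TNF family (chromosome 13, 23570370 to 23676104), stood at 36, 34.8 and 34.8 CPM in WT and 23.5, 25.1 and 22.8 CPM in S239A and was called lower (-0.60, 0.00104). Neither overlapped between groups. The 14 Hedgehog pathway genes had a median of 0.20, with 1 called higher in the 5 libraries and 1 wholly above WT, and the 5-library median went from 0.19 to 0.11 after the subtraction. TGF-beta and BMP response genes had 0.067, with 1 called in each direction of 42 (2.38% each, against 3.18% higher and 2.88% lower over all genes).

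Neuroendocrine and neuronal genes had a median of 0.21 and 0.14 in replicates 1 and 3 and of -0.00025 in replicate 2, and the subtraction took the 5-library median from 0.18 to 0.098. Of 23 tested, 7 (30.4%) lay wholly above WT and 2 (8.7%) wholly below. In the 5 libraries 2 were called higher and 2 lower (8.7% each, against 3.18% and 2.88% of all genes). SRRM4, the splicing regulator of neural microexons, stood at 202, 208 and 206 CPM in WT and 266, 252 and 259 CPM in S239A and was called higher in the 5 libraries (0.36, edgeR adjusted p = 0.000212), as was SEZ6L2, a membrane protein of neurons (0.26, 0.00303). STMN1, which destabilises microtubules, stood at 403 ± 5.7 CPM in WT and 346 ± 20 CPM in S239A and was called lower (-0.17, 0.0236). The 7 neuroendocrine markers used to check the cells summed to 386 to 396 CPM in WT and 339 to 430 in S239A, which overlapped.

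In lipid synthesis 1 gene stood out by its size. FASN, the fatty acid synthase (chromosome 17, 82078338 to 82098294), stood at 2000, 2060 and 2110 CPM in WT and 2760, 3080 and 2720 CPM in S239A. All S239A libraries were above WT, and replicate 2 was highest (log2 fold change 0.47, SE 0.08, edgeR adjusted p = 0.131; 0.42 and edgeR adjusted p = 5.94e-07 in the 5 libraries). The fatty acid synthesis list had a median of 0.07, with 7 of 23 wholly above WT and 1 called in each direction in the 5 libraries. By library its median was 0.0013, 0.20 and 0.042, so that it was highest in replicate 2. The 5-library median went from 0.055 to 0.036 after the subtraction for GC content and length. Cholesterol synthesis genes had a median of -0.027, with 1 of 27 called lower and 0 higher.

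Stress and protein folding lists showed members in both directions. ATF4 amino acid response genes had a median of 0.056, with 2 of 32 called higher and 0 lower in the 5 libraries. Aminoacyl-tRNA synthetases, which charge transfer RNAs, had -0.013 and -0.087 in the 2 fits, with 1 higher and 2 lower of 20. AARS, the alanyl-tRNA synthetase, was at 363 ± 11 CPM in WT and 433 ± 21 CPM in S239A and was called higher (0.22, edgeR adjusted p = 0.00581). Endoplasmic reticulum chaperones had -0.041, with 2 higher (5.26%) and 5 lower (13.2%) of 38. Cytosolic heat shock chaperones had -0.031, with 3 higher (11.5%) and 7 lower (26.9%) of 26. Over all genes 3.18% were called higher and 2.88% lower. Of the heat shock list, DNAJA1 (-0.23, edgeR adjusted p = 0.00444) and PTGES3 (-0.20, 0.00665) were among the lower. ERN1, the sensor kinase and nuclease of the unfolded protein response, was among the higher (0.38, edgeR adjusted p = 0.0156), and so was HSPA1A, the inducible HSP70 (0.28, 0.0231), whose near-identical neighbour can share its reads. NRF2 and antioxidant genes had -0.014, with 1 called in each direction of 35, and the lower was PRDX3, the mitochondrial peroxiredoxin (-0.24, edgeR adjusted p = 0.0102).

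Genes that belong to no list gave some of the larger differences. SSPO, which encodes a giant thrombospondin-like protein (chromosome 7, 149776042 to 149833979), stood at 32.1, 35.5 and 29.4 CPM in WT and 52.2, 49.8 and 53.4 CPM in S239A, without overlap and with replicate 2 like the others (log2 fold change 0.69, SE 0.12, edgeR adjusted p = 0.131). IGSF9B, a synaptic adhesion protein, stood at 20.9, 24.8 and 24.5 CPM in WT and 33.5, 41.5 and 34.5 CPM in S239A, and DGKG, a diacylglycerol kinase, at 18.5, 16.3 and 18.7 CPM in WT and 26.5, 31.6 and 25.5 CPM in S239A. SSPO, IGSF9B and DGKG were called higher in the 5 libraries (0.72, 0.55 and 0.53, edgeR adjusted p = 0.000109, 0.00336 and 0.00924). SLC25A13, the mitochondrial aspartate and glutamate carrier, stood at 35.7, 29.5 and 33.8 CPM in WT and 25.2, 23.4 and 20.9 CPM in S239A, and EEF1E1, a scaffold of the multisynthetase complex, at 29.8, 25.8 and 24.1 CPM in WT and 18, 13.9 and 20.9 CPM in S239A. Both were called lower (-0.53 and -0.45, edgeR adjusted p = 0.0073 and 0.0342), and replicate 2 was the lowest library for EEF1E1. By contrast CRIP1, which encodes a small LIM domain protein, stood at 43.5, 40.4 and 35.6 CPM in WT and 50.2, 21.8 and 57.1 CPM in S239A, so that replicate 2 was the lowest of all 6 libraries while the other 2 S239A libraries were the highest, and it was called higher in the 5 libraries (0.44, edgeR adjusted p = 0.00756).

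The remaining lists of 10 or more genes had medians within 0.1 log2 units of 0 in the fit of all 9 libraries. In all 9 libraries the median was -0.033 for 78 cytosolic ribosomal proteins, whose reads can be shared with processed pseudogenes, 0.019 for 37 p53 targets, 0.084 for 34 interferon response genes and -0.00059 for 27 NF-kB genes. It was -0.029 for 17 BCL2 family and related regulators of apoptosis, -0.074 for 30 D cyclins, RB and CDK inhibitor genes, -0.00058 for 47 lysosome and autophagy genes, -0.086 for 25 tricarboxylic acid cycle genes, 0.093 for 14 genes of the MYC network and 0.071 for 13 nuclear-retained long noncoding RNAs. The 4 tested androgen glucuronidation genes, with UGT2B15, had -0.52 in all 9 libraries, with 1 wholly below WT and 0 called. That gene was UGT2B11, at 0.975, 0.878 and 0.567 CPM in WT and 0.494, 0.246 and 0.102 CPM in S239A, near or below the floor of 3 counts. It was not tested in the 5 libraries, where the median of the other 3 was -0.34. UGT2B4 and UGT2B10 were low as well, with means of 2.43 and 1.32 CPM in WT. Interferon response genes had a median of 0.13 in the 5 libraries and of 0.12 after the subtraction, with 1 of 34 called higher and 0 lower. By library their median was 0.084, -0.0086 and 0.13, so that replicate 2 lay nearest to WT. In the 5 libraries the largest counts in 1 direction among these lists were 6 p53 targets, 5 ribosomal proteins and 4 genes of the cyclin list called higher, and 3 tricarboxylic acid cycle genes called lower. MALAT1, an abundant nuclear RNA, was called higher (0.26, edgeR adjusted p = 0.00621), as were CDK6, a kinase of the D cyclins (0.23, 0.0378), and the transcription factor E2F5 (0.78, 0.0286). The cytosolic aconitase ACO1 was called higher (0.26, 0.0332) and the malate dehydrogenase MDH1 lower (-0.22, 0.029).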

How the data were processed

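RNA was sequenced from poly(A)-selected libraries of 22Rv1 cells, per the labels' protocols. The authors deposited 2 tables, 1 with expected counts per gene and 1 with TPM for each library. Per the submitters' processing notes, Trimmomatic 0.39 and RSEM were used. The TPM values were computed by the authors and served only for levels per transcript length and 1 alternative test. The aligner, genome build and strandedness are not given in the sources used here. Gene coordinates are those in the deposited count table. The PDCD4 codon comes from GENCODE release 29 (GRCh38), as do transcript lengths and GC content, which were matched by gene ID. Promoters come from RefSeq on GRCh38.p14.

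Expected counts were rounded to whole numbers (3.81% of values were not whole) and all 60623 genes were kept for library sizes, including 22747 without a symbol in the deposited table. Genes passing edgeR's default expression filter, 16213 in number, entered an edgeR analysis (version 4.0.16, R 4.3.3; TMM scaling, quasi-likelihood F test, two-sided, Benjamini-Hochberg adjusted p under 0.05) in 1 fit of all 9 libraries. Total counts ran from 5696841 to 9688554. Floors cover counting error only, while the 95% intervals of fold changes come from edgeR and include the spread between libraries. Alternatives used DESeq2 1.42.0, limma 3.58.1 on log2(TPM + 1) or with voom quality weights, other scaling and filters, and subsets of libraries. The fit called here the 5 libraries holds WT replicates 1 to 3 and S239A replicates 1 and 3.

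Genes named are PDCD4, its partners and a few genes of the study's question, every gene called, the 12 largest differences in each direction among non-overlapping genes with at least 20 CPM, up to 4 members per list with the smallest p, and the 6 genes highest and lowest in S239A replicate 2. The members and lists were chosen with earlier results of these data known. Deviations of same-numbered WT and S239A libraries from their group means had correlations across genes of 0.025, 0.015 and 0.091. Those of S239A with S239D were 0.1, 0.25 and 0.1, and those of WT with S239D were -0.0035, 0.01 and -0.0087. Since not every pair was over 0.1, the numbers were not taken as pairs. Some genes that meet the naming rule are not reported here.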

Additional observations from a re-analysis of the deposited data

How the results depend on the processing

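The count of 1 gene called in all 9 libraries became 66 with DESeq2, 2 with limma on TPM, 142 with no filter on low counts and 760 with voom quality weights. Leaving out S239A replicate 2 gave 982 genes in WT and S239A alone, and 874 where S239D replicate 2 was left out as well. Leaving out each library of the 9 in turn gave 1 to 8 calls (2 without WT replicate 3, 8 without S239D replicate 2). The cause was not tested. A replicate block called 6 genes, and the numbers are not shown to pair the libraries. The following were chosen after seeing the data. With mitochondrial genes removed and S239A replicate 2 and S239D replicate 2 left out the count was 878. In WT and S239A alone it was 2 without WT replicate 3, 4 without S239A replicate 3 and 1 without each of WT replicate 1, WT replicate 2 and S239A replicate 1. The subtraction for GC content and length is given beside most of the lists with larger shifts.

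Over 97 genes named and their alternatives, 1129 of 1243 values kept direction and side of the threshold, 105 passed it only in the alternative, 0 lost it and 9 changed sign. TXNIP alone passed in all 9 libraries, so no other gene could lose the threshold. A value that kept its side was for every other gene one that stayed uncalled. Without 1 library in turn, PDCD4 ran from -0.13 to 0.063 (0.01 without WT replicate 2, 0.063 without S239A replicate 1), EIF4A2 from -0.083 to 0.059, EIF4G1 from -0.068 to 0.12 and CRIP1 from -0.14 to 0.43. EIF4A2 was 0.057 and 0.059, and EIF4G1 -0.068 and -0.068, without S239A replicate 2, with and without S239D replicate 2 left out. CRIP1 was -0.0026 with limma on TPM, -0.0028 without S239A replicate 1 and -0.14 without S239A replicate 3. Of 622 list medians under alternatives 50 changed sign, none among the 17 lists whose median was at least 0.1 in size. The 17 were picked by that same median, and some lists just under 0.1 did change sign. With DESeq2 small nucleolar RNA host genes went from -0.099 to 0.031 and replication-dependent histones from -0.095 to 0.12.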
